A study of Jaltomata procumbens and Jaltomata herrerae with 23 samples.

Results

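A set of 55 loci whose transcript level peaked at the secretory stage in floral nectaries of Jaltomata procumbens, without a rise at the same stage in Jaltomata herrerae, was described across 2 species, 3 nectary stages and leaf. The loci came from a table of 13170 Arabidopsis thaliana loci to which Jaltomata transcripts had been assigned. Levels were compared as log2(scaled TPM + 1), where TPM is a length-normalised share of the transcripts in a library and each library was scaled to a total of 1000000 after 3 dominant loci were removed. Members were chosen by measured values, the group means of these libraries: the procumbens secretory mean had to be at least 1.5 above both its pre-secretory and its post-secretory mean on that scale. In herrerae its secretory mean had to be less than 0.5 above its pre-secretory mean, and its mean over the nectary libraries had to be at least 5 scaled TPM. Of the 13167 loci left, 183 peaked in procumbens, 85 of these showed no such herrerae rise, and 55 of the 85 reached the level. Known Arabidopsis symbols were at hand for 13 of the 55, and 42 are counted here without a name. The symbols and roles are those of the Arabidopsis genes, and the roles are not known from these data for Jaltomata.

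Nectaries were dissected by hand at 3 stages, and leaves were fully expanded. Pre-secretory nectaries were taken 24 to 48 h before anthesis, secretory ones from flowers at full anthesis 3 to 6 h after dawn, and post-secretory ones once petals had been shed. The table holds 23 libraries, of which 20 were used. For procumbens these were pre-secretory B, C and D, secretory A and B, post-secretory B and C and leaf B and C. For herrerae they were A, B and C at each nectary stage and leaf A and B. Whether replicates were taken from different plants is not in the labels, and a p-value here measures the spread between these samples alone. In such bulk samples fewer cells of a type and less RNA per cell cannot be told apart. Read depth cannot be had from TPM, and low values therefore carry no interval.

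Floral nectaries are small glands that draw sugar from the phloem or from stored starch and release it as nectar when the flower opens. In Arabidopsis the exporter SWEET9 moves sucrose out of nectary cells, and the cell wall invertase CWINV4 splits it outside the cell, which keeps sucrose and water moving outward. Jaltomata herrerae is known for red nectar, coloured by nesocodin, a pigment formed from sinapaldehyde and proline.

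The 3 procumbens libraries that the choice left out correlated better with another group than with their label. For pre-secretory A the correlation was 0.892 with herrerae leaf and 0.462 with the other pre-secretory libraries. Post-secretory A reached 0.979 with the secretory group, against 0.835 with its label, and leaf A reached 0.950 with post-secretory nectary, against 0.721. Pre-secretory C, which was kept, also lay nearer the secretory group (0.958) than its own (0.941). The leaf markers RBCS1A, LHCB1.1 and RCA summed to 111 to 191 scaled TPM before, 136 to 261 during and 1439 to 2271 after secretion in the procumbens nectary libraries used, and to 58909 to 73521 in leaf. In herrerae the sums were 184 to 10628 before, 211 to 564 during and 3195 to 9024 after secretion, and 113630 to 149197 in leaf. The nectary markers SWEET9 and CRC summed to 5168 to 39452, 45082 to 54263 and 1387 to 5468 over the same 3 procumbens stages, and to 25.9 to 46.7 in leaf. In herrerae they summed to 10025 to 17246 before, 33625 to 35147 during and 1103 to 2392 after secretion, and to 490 to 849 in leaf. The 4 phloem and xylem markers in the table summed to 14.3 to 26.7 before, 2.95 to 9.80 during and 20.2 to 30.8 after secretion in procumbens. The herrerae sums were 36.1 to 47.3, 14.3 to 25.2 and 51.8 to 60.4 at these stages. Of these markers APL was at 0 throughout procumbens secretory nectary, SEOA throughout herrerae secretory nectary, and APL, SEOR1 and SEOA throughout procumbens post-secretory nectary. No marker of the leaf or nectary list was at 0 throughout a group. The ovule and meristem markers ANT and STK summed to 166 to 229 before, 140 to 155 during and 201 to 240 after secretion in herrerae. The procumbens sums were 14.3 to 30.9, 10.3 to 21.0 and 20.2 to 52.3, and ANT was at 0 throughout both secretory groups. Sums of the petal and stamen markers overlapped between the species at each nectary stage, as did those of the tapetum and pollen markers. Only 3 of the 16 listed tapetum and pollen markers were in the table. Of these EMS1 was at 0 throughout both secretory groups and procumbens post-secretory nectary. The part of any of these tissues in the results below was not tested.

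The choice fixed the peak, so its size is a description without a test. Over the 55 members the procumbens secretory mean exceeded the pre-secretory mean by 1.51 to 5.44 (median 2.16) and the post-secretory mean by 1.51 to 4.37 (median 2.18) on the log2 scale. The herrerae secretory mean lay between 1.79 below and 0.47 above its pre-secretory mean, with a median difference of -0.12. For the rise in procumbens the nearest values inside and outside the limit were 1.51 and 1.49, and 163 loci missed the set on this limit alone. They were 1.507 and 1.496 for the fall (119 loci), 0.47 and 0.51 for herrerae (88 loci) and 5.06 and 4.78 scaled TPM for the level (30 loci). Both secretory libraries stood above all 5 pre- and post-secretory libraries in 48 of the 55 members. The choice favours this count, and its share over all loci was not taken. The pre-secretory libraries themselves were far apart: C was highest of the 3 in 53 of the 55 members (96.4%), against 29.7% of all loci. Leaving out pre-secretory C gave 86 loci, all 55 members among them, and leaving out pre-secretory D gave 31, each of them a member. Only 12 members met the limits whichever 1 of the 20 libraries was left out, and 1 of those 12 has a symbol, CAT1.

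**Figure D1:**
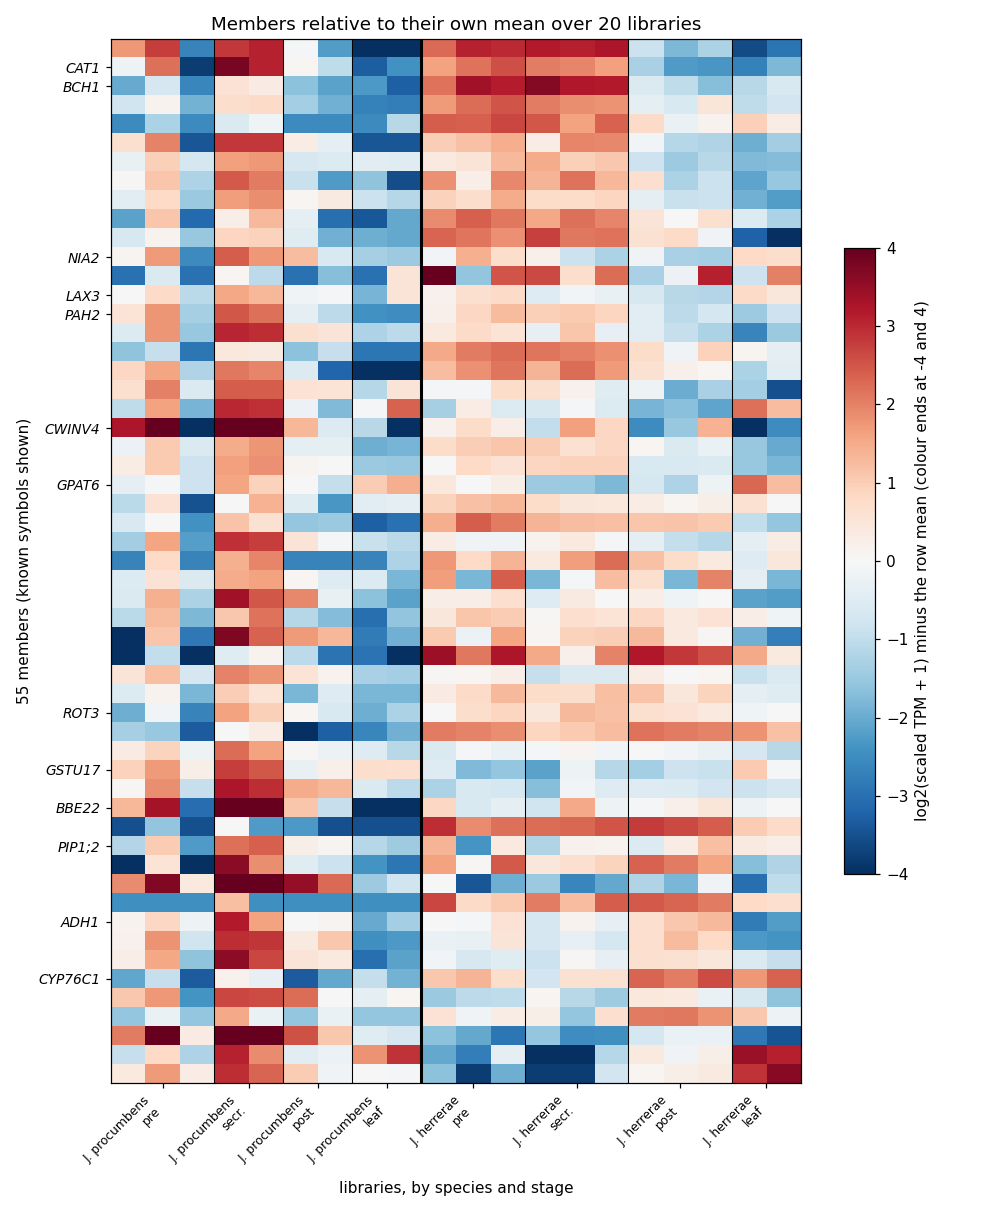
Each row is 1 of the 55 members and each column 1 of the 20 libraries, with colour giving log2(scaled TPM + 1) minus the row mean and rows ordered by the herrerae post-secretory minus pre-secretory difference, lowest on top. The secretory columns of procumbens are red in most rows, while the herrerae columns differ from row to row.

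The members with the highest secretory level and a known symbol act on sugars outside the cell in Arabidopsis. BBE22 is a berberine bridge enzyme-like protein that oxidises cellodextrins in Arabidopsis. It stood at 1902, 7658 and 92.1 scaled TPM in procumbens pre-secretory B, C and D, at 15595 and 15610.3 in secretory A and B, at 1625 and 398 in post-secretory B and C, and at 19.8 and 10.3 in leaf B and C. Both secretory libraries were higher than every other procumbens library used, and the pre-secretory ones spanned a wide range. In herrerae BBE22 stood at 1342, 499 and 579.6 before, 439, 2181 and 658 during and 736, 871 and 1069.8 scaled TPM after secretion, and at 660.2 and 757 in leaf. All herrerae groups overlapped at this locus. The procumbens secretory mean was 3.82 above the pre-secretory mean on the log2 scale, and the post-secretory mean 4.28 below the secretory one.

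CWINV4, the cell wall invertase of nectar production in Arabidopsis, stood at 1971, 3431 and 8.01 scaled TPM in procumbens before, 4805 and 5511 during and 526 and 141 after secretion, and at 96.3 and 12.1 in leaf. Pre-secretory D was lower than either leaf library, while B and C were above both post-secretory libraries. In herrerae the levels were 233, 345 and 252 before, 104, 648 and 374 during and 35.8, 72.9 and 551 after secretion, and 5.17 and 35.5 in leaf. The herrerae nectary stages overlapped. Another cell wall invertase of the list, CWINV2, stood at 2768, 2849.8 and 1148 before and at 2366 and 2275 scaled TPM during secretion in procumbens, with no peak. Of the 7 other invertase and inhibitor genes tested in limma, 1 passed an adjusted p under 0.05 in procumbens secretory against pre-secretory nectary, and it was lower. Over all 13072 loci tested, 11.6% were called higher and 22.8% lower in this comparison. That comparison chose the members, so such counts are given only for listed genes that are no members. With the 3 left-out libraries put back, at most 1 gene of each list described here passed in procumbens.

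The berberine bridge enzyme-like list held relatives of BBE22 with a like course in procumbens. BBE28 stood at 5872, 17249 and 173 scaled TPM before, 31473 and 31321 during and 3257 and 793 after secretion. BBE23 stood at 447, 1484 and 40.04 before, 3976 and 3073 during and 314 and 96.6 after it. Neither was a member: the herrerae secretory mean of BBE28 was 0.96 and that of BBE23 was 1.02 above the pre-secretory mean, both over the limit of 0.5. Herrerae secretory nectaries held 815, 3332 and 1469.8 scaled TPM of BBE28. In these nectaries BBE23 stood at 7.28 in A and at 0 in B and C. Reads could be shared among close relatives of this family, since how transcripts were assigned to loci is not given in the sources used here. Of the 6 listed relatives tested, 3 were higher and 1 was lower in procumbens secretory against pre-secretory nectary, and the 4 calls became 2 without pre-secretory D or secretory A and 1 without secretory B.

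Transporters made up a second group. CAT1, a cationic amino acid transporter in Arabidopsis, stood at 43.6, 234 and 2.67 scaled TPM before, 713 and 431 during and 53.6 and 24.5 after secretion in procumbens, and at 4.25 and 8.62 in leaf. In herrerae it was already high before secretion, at 155, 229 and 309, stayed at 211, 198 and 158 during it, and stood at 20.1, 9.59 and 9.18 after it and at 6.90 and 13.9 in leaf. The herrerae pre-secretory and secretory libraries overlapped with each other and with none of the post-secretory or leaf libraries. PIP1;2, a water channel of the plasma membrane, stood at 12.7, 61.4 and 5.34 before, 139.9 and 161 during and 34.9 and 31.7 after secretion in procumbens, and at 12.7 and 10.3 in leaf. In herrerae it stood at 77.7, 4.98 and 38.6 before, 12.1, 33.4 and 32.3 during and 20.1, 36.4 and 69.7 after secretion, and at 37.9 and 35.5 in leaf. The 3 herrerae nectary stages overlapped, and leaf lay just above the secretory libraries. LAX3, an auxin influx carrier, stood at 18.3, 31.4 and 8.01 before, 54.5 and 46.2 during and 16.1 and 17.3 after secretion in procumbens. In herrerae its levels were 20.3, 28.2 and 30.9 before, 12.1, 16.7 and 14.4 during and 11.2, 7.67 and 7.34 after secretion, so the 3 stages did not overlap.

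Of the 22 other aquaporin genes tested, 5 were higher and 2 lower in procumbens secretory against pre-secretory nectary, and 5 were higher and 3 lower in herrerae. The 7 procumbens aquaporin calls became 4 without pre-secretory B and 3 without secretory A or B. The herrerae count included PIP1;3, at 684, 1471 and 1146 scaled TPM in secretory against 128, 114 and 87.6 in pre-secretory nectaries. Of the 29 other amino acid, nitrate and peptide transporters tested, 5 were higher and 3 lower in procumbens and 4 were higher and 4 lower in herrerae. NPF7.3, a nitrate transporter in Arabidopsis, stood at 1043 and 856 in procumbens secretory against 46.4, 349.6 and 16.0 in pre-secretory nectaries. Its herrerae secretory mean was 0.99 above the pre-secretory mean, so it was no member. The 8 procumbens calls became 3 without secretory A and 5 without secretory B, and the 8 herrerae calls became 5 without pre-secretory A and 2 without secretory B. Over all loci, 8.69% were called higher and 28.4% lower in herrerae secretory against pre-secretory nectary.

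**Figure D2:**
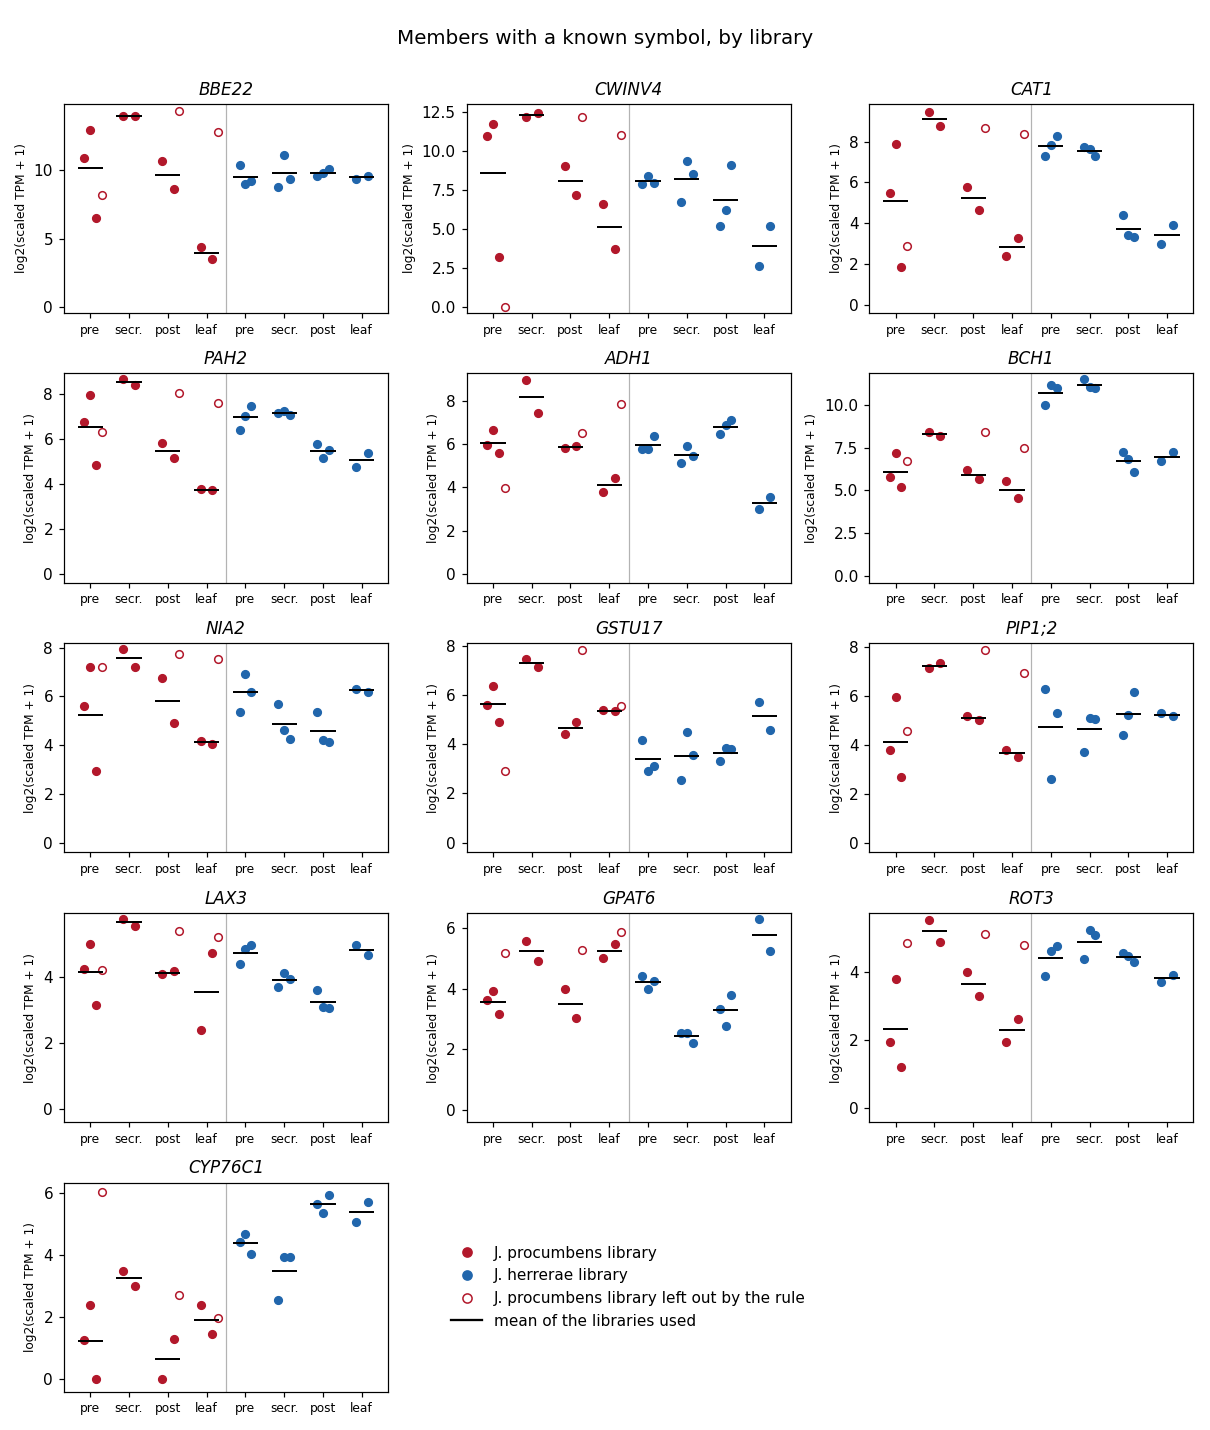
The 13 members with a known symbol, with log2(scaled TPM + 1) on each vertical axis and 1 point per library (red procumbens, blue herrerae), bars for means of the libraries used and open circles for the 3 libraries left out. BBE22 and CWINV4 reach the highest procumbens secretory levels, while BCH1 is higher in herrerae than in procumbens before and during secretion.

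BCH1, a beta-carotene hydroxylase that leads to zeaxanthin, combined a procumbens peak with a higher level in herrerae. It stood at 54.8, 143 and 36.0 scaled TPM before, 336 and 285 during and 71.1 and 50.5 after secretion in procumbens. In herrerae it stood at 1021, 2339 and 2004 before, 2890.0, 2099.9 and 2034 during and 152, 111 and 67.9 after secretion, and at 105 and 148 in leaf. Every herrerae pre-secretory and secretory library was above every procumbens library used. Of the 16 other carotenoid genes tested, 3 were higher and 2 lower in procumbens secretory against pre-secretory nectary, and in herrerae 2 were higher and 4 lower. The 5 procumbens calls became 8 without pre-secretory C, 3 without pre-secretory D and 2 without secretory A. In procumbens post-secretory against secretory nectary, 2 of the 16 were higher and 11 lower, where 31.1% of all loci were called higher and 8.74% lower. PSY, phytoene synthase, which opens the carotenoid pathway, stood at 343 and 162 in procumbens secretory against 9.84, 69.9 and 8.01 in pre-secretory nectaries. In herrerae PSY stood at 944, 1604 and 1606 in secretory against 60.8, 64.7 and 100.5 in pre-secretory nectaries, where the 2 BCH1 groups overlapped.

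Genes of nitrogen, fermentation and detoxification followed. NIA2, a nitrate reductase, stood at 47.8, 147 and 6.67 scaled TPM before, 243 and 148 during and 106 and 28.8 after secretion in procumbens. Its lower secretory value was close to that of pre-secretory C. In herrerae NIA2 stood at 40.6, 121 and 72.1 before, 51.0, 23.8 and 18.0 during and 40.3, 17.3 and 16.5 after secretion. ADH1, an alcohol dehydrogenase induced by low oxygen in Arabidopsis, stood at 60.5, 98.5 and 46.7 before, 496 and 169 during and 54.98 and 59.1 after secretion in procumbens, so the 2 secretory libraries were themselves far apart. In herrerae its highest values came after secretion, at 87.3, 115 and 136, against 54.1, 53.1 and 82.4 before and 34.0, 59.6 and 43.1 during it. GSTU17, a tau class glutathione transferase, stood at 47.8, 82.8 and 29.4 before, 175 and 143 during and 20.1 and 28.8 after secretion in procumbens, and ran from 4.85 to 21.5 over the 9 herrerae nectary libraries.

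Lipid, hormone and terpene enzymes made up the last group. PAH2, a phosphatidate phosphohydrolase, stood at 107, 249.7 and 28.0 scaled TPM before, 407 and 339 during and 54.98 and 34.6 after secretion in procumbens. In herrerae it stood at 84.5, 129 and 175 before, 141, 153 and 133 during and 53.7, 34.5 and 44.0 after secretion. GPAT6, an acyltransferase of cutin synthesis in flowers, stood at 11.2, 14.3 and 8.01 before, 47.1 and 29.4 during and 14.8 and 7.21 after secretion in procumbens. Herrerae GPAT6 was lowest during secretion, at 20.3, 14.9 and 18.0 before, 4.85, 4.77 and 3.59 during and 8.95, 5.75 and 12.8 after secretion. Of the 36 other cuticle genes tested, 1 was higher and 8 lower in procumbens secretory against pre-secretory nectary, and the 9 calls became 15 without pre-secretory C, 2 without pre-secretory B or D or secretory A and 4 without secretory B. ROT3, a brassinosteroid hydroxylase, stood at 2.81, 12.8 and 1.33 before, 44.2 and 28.0 during and 14.8 and 8.65 after secretion in procumbens, and its 9 herrerae nectary libraries ran from 13.5 to 35.8. CYP76C1, a cytochrome P450 that oxidises linalool in Arabidopsis flowers, was low in procumbens nectaries, at 10.3 and 6.997 scaled TPM at its peak, against 0 to 4.28 before and 0 and 1.44 after secretion. In herrerae it stood at 20.3, 24.9 and 15.5 before, 4.85, 14.3 and 14.4 during and 49.2, 40.3 and 60.6 after secretion.

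Among the 42 members without a symbol the level ranged widely. AT5G46900 was the highest, at 9244, 18804 and 435 scaled TPM before, 19506 and 23079 during and 2645 and 581 after secretion in procumbens. In herrerae it stood at 13199, 23299.8 and 22032 before, 24850.2, 23695 and 26015 during and 1515, 788 and 1143 after secretion. On this scale the 2 species thus reached a like secretory level. As deposited, herrerae secretory nectaries held 10241, 9941 and 7239, all below the 13241 and 16492 of procumbens. The 3 dominant loci removed before scaling held 30.5% to 48.8% of the herrerae secretory totals. In the procumbens secretory libraries they held 2.55% and 2.61%. AT4G34910 stood at 189.8, 1077 and 56.1 before, 1978 and 2291 during and 266 and 95.2 after secretion in procumbens, and its 9 herrerae nectary libraries ran from 5.15 to 36.7. Both loci were picked for their levels. At the low end, 9 of the 55 members were under 10 TPM as deposited in both procumbens secretory libraries, where rounding to whole numbers limits every difference. On the Arabidopsis chromosomes 1 to 5 lay 14, 10, 8, 12 and 10 members, and 1 locus was on the plastid genome.

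The members differed in which herrerae nectary stage had the highest mean. Of the 55 members, 19 were highest in the herrerae pre-secretory, 17 in the secretory and 19 in the post-secretory group, and 28 were lowest in the post-secretory group. The herrerae secretory mean was above the procumbens secretory mean in 15 members. Before secretion the herrerae mean was above the procumbens mean in 39 of the 55. These counts describe groups that the choice used, and their shares over all loci were not taken. The level asked for in herrerae and the low procumbens pre-secretory mean favour the last of them. Leaf was the lowest of the 4 procumbens groups in 42 of the 55 members (76.4%), against 45.8% of all loci tested. It was the lowest of the 4 herrerae groups in 36 members (65.5%), against 49.0% of all loci tested. The choice kept the procumbens secretory group from being lowest and asked for a level in herrerae nectaries, so both counts are in part fixed by it. In 7 members both procumbens leaf libraries were at 0, a count that was not taken over all loci.

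Calls on differences that the choice did not set directly were made in limma on 13072 loci, all 55 members included. Benjamini-Hochberg adjustment ran over all loci, and the limit was an adjusted p under 0.05. Groups that the choice used enter several of these comparisons, as said beside them. In all 5 comparisons below the count of members called fell by more than 1.5 times when the 3 left-out libraries were put back under their labels. The calls below on ADH1, on CYP76C1 and on GPAT6 in post-secretory nectary against leaf held with those libraries. So did the BCH1 calls within herrerae and in the difference between the species that is tested last. The other calls on members with a symbol did not hold. Every comparison shares 1 variance per locus over all groups.

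In leaf, 3 members were higher and 17 lower in procumbens than in herrerae, against 20.7% and 15.5% of all loci. As shares of the members these are 5.45% and 30.9%, and the median log2 difference was -1.18 over the members and 0.12 over all loci. The choice used no leaf library, but it asked for a level in herrerae nectaries. BBE22 stood at 19.8 and 10.3 scaled TPM in procumbens leaf against 660.2 and 757 in herrerae leaf, a log2 difference of -5.53 (SE 1.35, adjusted p = 0.00475 in limma). CYP76C1 stood at 4.25 and 1.73 in procumbens leaf against 32.8 and 50.9 in herrerae leaf (log2 difference -3.47, SE 0.65, adjusted p = 0.000655 in limma). BCH1 stood at 45.3 and 22.4 in procumbens leaf against 105 and 148 in herrerae leaf (-1.93, SE 0.55, adjusted p = 0.0116 in limma). For BBE22, CYP76C1 and BCH1 the leaf libraries of the species did not overlap. Among the members higher in procumbens leaf was AT4G34910, at 31.1 and 27.6 scaled TPM against 5.17 and 3.08 in herrerae leaf (2.59, SE 0.89, adjusted p = 0.0317 in limma). The BCH1 call was lost without herrerae leaf B and without procumbens leaf C. The number of members called was 20 with all libraries used, 12 without herrerae leaf B and 13 without procumbens leaf B.

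After secretion in herrerae, 2 members were higher and 15 lower than before secretion, against 26% and 12.3% of all loci. The median log2 difference was -0.53 over the members and 0.23 over all loci. The pre-secretory libraries also entered the choice, as the level that the secretory mean was held against, which favours members that were high in them. The level asked for in herrerae included the post-secretory libraries. Called higher were AT4G32590, at 13.4, 15.3 and 16.5 scaled TPM against 3.38, 0 and 2.58 before secretion, and ATCG01020. The latter stood at 11.2, 11.5 and 9.18 against 3.38, 1.66 and 2.58. Both reached the level, with herrerae nectary means of 6.49 and 5.06, only through the post-secretory libraries. Their 2 calls are thus not free of the choice. The nectary marker sums also differed between these groups, as given above. CAT1 fell to 20.1, 9.59 and 9.18 scaled TPM in post-secretory nectaries, against 155, 229 and 309 in pre-secretory ones (log2 difference -4.09, SE 0.96, adjusted p = 0.00409 in limma). BCH1 fell to 152, 111 and 67.9 after secretion, against 1021, 2339 and 2004 before it (-3.99, SE 0.45, adjusted p = 1.77e-05 in limma). AT5G46900 fell to 1515, 788 and 1143, against 13199, 23299.8 and 22032 before secretion (-4.09, SE 0.97, adjusted p = 0.00422 in limma). LAX3 (-1.50, SE 0.48, adjusted p = 0.0230), PAH2 (-1.50, SE 0.52, adjusted p = 0.0340) and GPAT6 (-0.93, SE 0.34, adjusted p = 0.0394) also fell. The LAX3 and PAH2 calls were lost when herrerae pre-secretory B or C or post-secretory B or C was left out, and also with dominant loci kept and with values as deposited. The GPAT6 call was lost without any 1 of herrerae pre-secretory A, B and C and post-secretory A and B, and with dominant loci kept or values as deposited. ADH1 (0.83, adjusted p = 0.0856), CYP76C1 (1.27, adjusted p = 0.0708) and CWINV4 (-1.26, adjusted p = 0.594) did not pass. The 17 calls became 10 without herrerae post-secretory B and 26 without procumbens pre-secretory D.

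**Figure D3:**
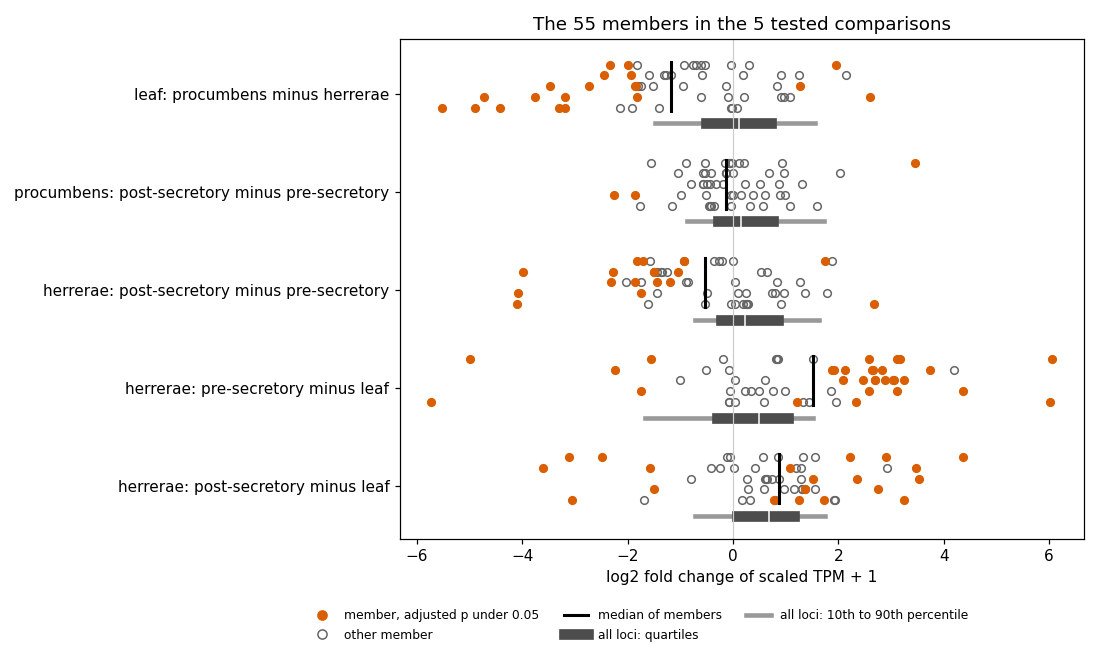
The log2 fold change of each of the 55 members in the 5 tested comparisons, filled where the adjusted p was under 0.05, with the members' median as a black line and the quartiles and the 10th to 90th percentiles of all 13072 loci as bars. The members' median lies at -1.18 in leaf and -0.53 for herrerae post-secretory against pre-secretory nectary, where the medians of all loci are 0.12 and 0.23.

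Against leaf, herrerae pre-secretory nectaries had 25 members higher and 5 lower, where 41.2% and 16.1% of all loci were called. Members had to reach a level in herrerae nectaries, which favours a higher nectary value. After secretion 14 members were higher and 6 lower than in leaf, against 48% and 8.36% of all loci. ADH1 was higher both before (2.704, SE 0.41, adjusted p = 5.99e-05 in limma) and after secretion (3.54, SE 0.41, adjusted p = 1.76e-05). Its levels were 54.1, 53.1 and 82.4 scaled TPM before and 87.3, 115 and 136 after secretion, against 6.90 and 10.8 in leaf, with no overlap. CAT1 (4.37, SE 1.08, adjusted p = 0.00290), BCH1 (3.74, SE 0.50, adjusted p = 1.90e-05) and PAH2 (1.91, SE 0.58, adjusted p = 0.0111) were higher than leaf before secretion and not called after it. GPAT6, at 77.6 and 37.0 in leaf, was lower than leaf before (-1.55, SE 0.38, adjusted p = 0.00253) and after secretion (-2.48, SE 0.38, adjusted p = 0.000106). So was GSTU17, at 51.7 and 23.1 in leaf (-1.75, SE 0.52, adjusted p = 0.00985, and -1.50, SE 0.52, adjusted p = 0.0233), while LAX3, at 31.0 and 24.7 in leaf, was lower after secretion (-1.58, SE 0.54, adjusted p = 0.0208). Without herrerae leaf A the GSTU17 and LAX3 calls, the PAH2 call and the pre-secretory GPAT6 call were lost, and the PAH2 call was also lost with dominant loci kept, with values as deposited and with median ratio rescaling. The post-secretory GSTU17 call was also lost without post-secretory A, and the LAX3 call without leaf B or post-secretory C. Without leaf B the 20 post-secretory calls became 9.

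These leaf comparisons depend on the scaling. The median log2 difference of all loci was 0.50 before and 0.68 after secretion, and -0.03 in both with median ratio rescaling. On that scale 19 members were higher and 6 lower before secretion, against 16.1% and 25.3% of all loci. After secretion 4 members were higher and 6 lower on it, against 12.1% and 18.6% of all loci. With values as deposited 21 members were higher and 6 lower before secretion, against 9.32% and 19.1% of all loci, and 10 were higher and 6 lower after it, against 19.4% and 8.81%. In herrerae post-secretory against pre-secretory nectary the deposited values gave 6 members higher and 9 lower, against 29.8% and 3.76% of all loci, with medians of -0.24 over the members and 0.45 over all loci.

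In procumbens, post-secretory and pre-secretory nectaries were both held below the secretory mean by the choice, but not against each other. This favours members low in both groups, so the counts and p-values that follow are not independent of the choice. Of the members 1 was higher and 2 were lower after secretion than before it, against 22.4% and 10.1% of all loci, and the median log2 difference was -0.13. AT4G10270 was higher, at 53.6 and 41.8 scaled TPM in post-secretory against 0, 35.7 and 1.33 in pre-secretory nectaries (3.46, SE 1.04, adjusted p = 0.0178 in limma), and the groups did not overlap. AT2G27860 was lower, at 0 and 1.44 against 8.44, 7.14 and 1.33 (-1.85, SE 0.47, adjusted p = 0.00677 in limma), where post-secretory C stood just above pre-secretory D. AT5G17650 was the other one lower, at 32.2 and 4.33 against 84.4, 141 and 20.0 (-2.25, SE 0.70, adjusted p = 0.0214 in limma), with post-secretory B inside the pre-secretory range. The 3 calls became 1 without pre-secretory B or post-secretory B, 11 without pre-secretory C and 8 without pre-secretory D.

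The difference between the species in this change was tested as an interaction, chosen after the values were seen. Of its 4 groups the choice held 3 against a secretory mean, both procumbens groups and herrerae pre-secretory nectary. It favoured members high in the last, and herrerae post-secretory nectary entered the level asked for. The counts and p-values are therefore not independent of the choice. The change was higher in procumbens for 4 members and lower for 1, against 10.9% and 9.07% of all loci. BCH1 was the member with a symbol among them: its post-secretory minus pre-secretory change was 3.86 higher in procumbens than in herrerae on the log2 scale (SE 0.67, adjusted p = 0.00145 in limma). CAT1, at 4.23, did not pass (SE 1.45, adjusted p = 0.0505). The 5 calls became 20 without procumbens pre-secretory C. They became 2 without herrerae pre-secretory B or C, herrerae post-secretory B or procumbens post-secretory B, and 3 without procumbens pre-secretory B, secretory A or B or post-secretory C.

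The choice did not use the values of the 3 libraries left out, but it did ask for a low mean of post-secretory B and C and of pre-secretory B, C and D. In the library labelled post-secretory A, 45 of the 55 members were higher than in post-secretory B and C. Of all 13167 loci, 2321 were higher in it than in both. The choice of members low in B and C favours the count of members. In post-secretory A the median over the members was 0.44 below the secretory mean on the log2 scale. It was 2.16 below in post-secretory B and 2.49 below in C. BBE22 stood at 19828 and CWINV4 at 4785 scaled TPM in post-secretory A. In the library labelled leaf A, 47 of the 55 members were higher than in leaf B and C, where 62.8% of all loci were. BBE22 stood at 7051 there, against 19.8 and 10.3 in leaf B and C. In the library labelled pre-secretory A, 16 members (29.1%) were higher and 17 lower than in each of pre-secretory B, C and D, where 31.3% of all loci were higher. In it CWINV4 stood at 0 and CYP76C1 at 64.4. The same 3 libraries stood apart over all loci, and whether their labels are right was not tested.

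**Figure D4:**
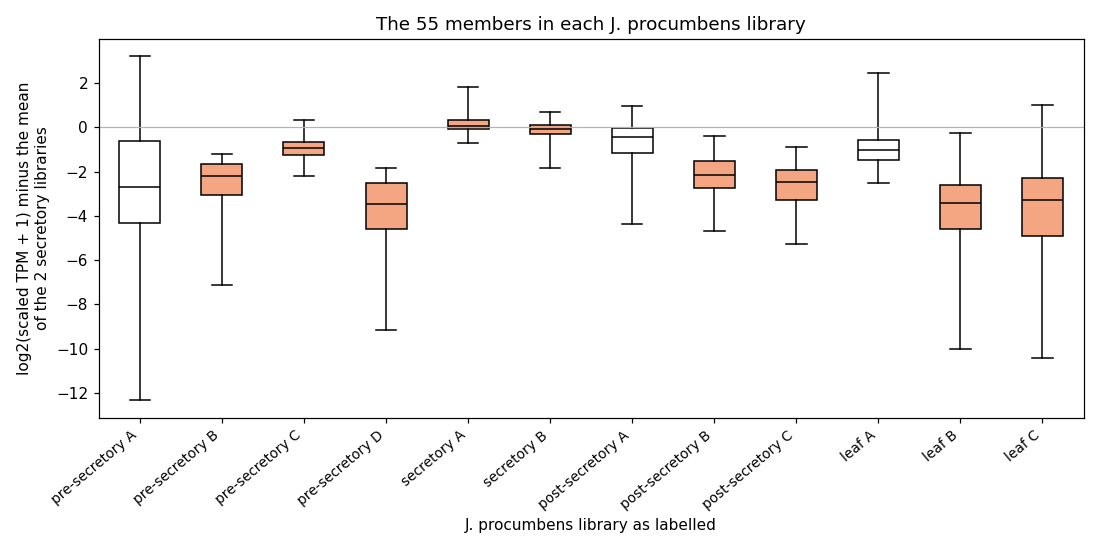
The 55 members in each of the 12 procumbens libraries, as log2(scaled TPM + 1) minus the mean of secretory A and B, with boxes for the quartiles and median, whiskers for the full range and white boxes for the 3 libraries left out. Pre-secretory C has its median at -0.91 and post-secretory A at -0.44, the nearest to the secretory libraries.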

How the data were processed

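RNA from hand-dissected nectaries and from leaves was sequenced, and 23 libraries were deposited as 1 table of 13170 loci. The deposited score per locus is labelled as TPM and comes in whole numbers, apparently rounded, so no count test applies. The submitters' processing notes name kallisto 0.46.1. Not given in the sources used here are the transcript reference, the assignment to Arabidopsis loci and the summing per locus. AT5G50290, AT5G36210 and AT2G01021 were removed, 3 libraries were left out, and each remaining column was scaled to 1000000. limma 3.58.1 (R 4.3.3) with a variance trend was fitted on log2(scaled TPM + 1), without a replicate block, over 20 libraries and the 13072 loci at 1 or more in at least 2 libraries. Fold changes on this scale understate those of low loci. P-values were adjusted by Benjamini-Hochberg over all loci. Figures were drawn with matplotlib 3.10.9, tables with pandas 2.3.3 and numpy 2.4.6 (Python 3.11.15), and the fit was tested on simulated data. The members and gene lists were chosen with earlier results of these data known. All members with a known Arabidopsis symbol in those lists are named, and others by at most 2 loci in each direction per comparison. The interaction and the list counts under other settings were chosen after seeing the data. Alternatives varied the libraries, scaling, pseudocount, filter, limits and model.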

Additional observations from a re-analysis of the deposited data

Results flagged for a closer look

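CYP76C1 had 1 sample far from the others in the 4 libraries labelled procumbens pre-secretory. Library A stood at 64.4 scaled TPM, against 1.41, 4.28 and 0 in B, C and D. The gap to the nearest of the others was 0.9335 of the whole range, past the Dixon limit for 4 samples. Chance marks about 1 in 20 such groups where no choice was made on their values. Members were chosen for a low mean of B, C and D, without A. This favours a high A, so that rate does not hold here and the gap is a description. All 13 members with a symbol were searched in this way, and CYP76C1 alone was marked. The same library correlated better with herrerae leaf (0.892) than with its own group (0.462), and it was left out of the choice. Whether tissue or labelling plays a part was not tested.

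The BCH1 change between post-secretory and pre-secretory nectaries differed between the species, by 3.86 on the log2 scale (SE 0.67, adjusted p = 0.00145 in limma). In procumbens the post-secretory values 71.1 and 50.5 scaled TPM lay within the pre-secretory range of 36.0 to 143. In herrerae all 3 post-secretory libraries, at 152, 111 and 67.9, lay below all 3 pre-secretory ones, at 1021 or above. The adjusted p ran between 0.000164 and 0.0299 over 29 settings and passed in each. The choice used both procumbens groups and herrerae pre-secretory nectary, so this p is not independent of it.

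The library labelled procumbens post-secretory A, used only where all 23 libraries were fitted, had 45 of the 55 members higher than post-secretory B and C. Of all 13167 loci, 2321 were higher in it than in both. Members were chosen to be low in B and C, which favours the count of members, so that count is a description. CWINV4 stood at 4785 scaled TPM in post-secretory A, against 526 and 141 in B and C.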

How the results depend on the processing

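The choice gave 91 loci with a pseudocount of 0.1, 172 with a peak of at least 1 and 25 with a peak of at least 2, against 55 as reported, and 31 to 86 when 1 library was left out. With all 23 libraries it gave 40 loci, 28 of them members. With all 23 libraries the members called were 7 in leaf, 2 in herrerae post- against pre-secretory nectary, 13 and 6 in herrerae pre- and post-secretory nectary against leaf, 0 in procumbens post- against pre-secretory nectary (limma, 6 at an unadjusted p under 0.05) and 1 in the interaction. Fitted on the compared groups only, these comparisons gave 33 in herrerae post- against pre-secretory nectary, 32 in herrerae post-secretory nectary against leaf, 0 in procumbens (also 0 unadjusted in limma) and 2 in the interaction. Median ratio rescaling gave 10 in herrerae post-secretory nectary against leaf. The interaction gave 3 with a pseudocount of 0.1 and 3 without a filter. Leaving out 1 library gave 12 to 29 in leaf, 10 to 26 in herrerae post- against pre-secretory nectary, 21 to 35 and 9 to 26 in herrerae pre- and post-secretory nectary against leaf, 1 to 11 in procumbens and 2 to 20 in the interaction. The causes of these shifts were not tested. With the replicate letter as a block, herrerae post- against pre-secretory nectary had 29 members called and procumbens 9. Same-letter libraries correlated at -0.34 to 0.05 in their deviations from the group means, so the letters were not taken as pairs. Of 19 calls on members with a symbol, 7 held in each of 29 settings, and 0 changed direction. TPM rounded to whole numbers limits loci with a low level, and depth is unknown.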
